A study of Drosophila melanogaster with 15 samples.

Results

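Lipid droplets are stores of neutral fat in the cytoplasm, and lipoproteins carry lipids between cells outside them. In the fly brain, glia take up lipids that neurons release and keep them in droplets, a route in which apolipoprotein-like lipocalins act as carriers and receptors of the low-density lipoprotein receptor family act at the cell surface. Inside the glial cell, acyltransferases fill a droplet, perilipins coat it and lipases empty it. The 10 genes described here cover each of these steps. They were the lipocalin genes *NLaz* and *GLaz*, the perilipin genes *Lsd-1* and *Lsd-2*, the lipase gene *bmm*, the acyltransferase gene *mdy*, the lipophorin gene *apolpp*, and the receptor genes *LpR1*, *LpR2* and *LRP1*. They were chosen by symbol for these functions from a table of 17509 genes, with earlier results of these data known, and all 10 were found in it by FlyBase identifier.

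The table came from RNA-seq of astrocytes of adult *Drosophila* brains. It held 15 samples in 3 groups of 5 replicates, which were uninjured flies, flies 4 hr after traumatic brain injury (TBI) and flies 24 hr after TBI. All flies carried *R86E01-Gal4* driving *UAS-Redstinger*, a red nuclear fluorescent protein, with genotype given as WT and no other allele or agent, and they were 3 days old when the injured groups were struck with a spring-driven high-impact trauma device. About 50 brains were pooled for a group, 1600 red cells were sorted by FACS into lysis buffer, and cDNA was made by Smart-seq2, which primes on the poly(A) tail and does not keep the strand of a transcript. The cells were therefore those in which the *R86E01* driver is active. The study describes the 5 replicates of each group as biological replicates. The labels tie a replicate to separate flies only by its number, so p-values measure the spread between these samples.

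Levels are in TPM, a length-corrected share of all transcripts of a sample scaled to a fixed total, so that the genes can be set beside each other within a sample. TPM values carry no read counts, and the depth of each sample is unknown. Genes above 0 numbered 8440 to 8737 in uninjured samples, 9127 to 9939 at 4 hr and 9075 to 10005 at 24 hr, more in every injured sample, and the part of this difference in genes that were near 0 without injury was not tested. The astrocyte genes *alrm* and *Eaat1* were high in all groups, with *alrm* at 19920 TPM ± 6259 (SD, n = 5) in uninjured flies, and the summed TPM of 8 astrocyte markers ranged from 50860 to 84420 over the 15 samples. Transcripts of the mitochondrial genome took 32.7% to 51.8% of TPM in uninjured samples, 11.5% to 43.2% at 4 hr and 15.2% to 37.2% at 24 hr. Replicates 4 and 5 of both injured groups stood apart from their groups with the highest mitochondrial shares, and results that rest on them are given with and without them. Nothing in the labels says that a shared replicate number marks a batch. All 10 genes passed the filter of at least 1 TPM in at least 5 samples, as did 8101 genes in all. *LpR1* passed only through injured samples, and the other low gene, *Lsd-1*, reached 1 TPM in 1 uninjured sample.

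In uninjured astrocytes *Lsd-2* was the most abundant of the 10 at 139.3 TPM ± 30.0 (SD, n = 5), followed by *bmm* at 77.9 ± 22.9, *NLaz* at 34.8 ± 18.9 and *apolpp* at 22.2 ± 7.03. Next came *mdy* at 11.6 ± 4.63, *LpR2* at 8.82 ± 4.06, *LRP1* at 5.54 ± 2.69 and *GLaz* at 2.38 ± 1.11. *Lsd-1* and *LpR1* were at or below 0.42 TPM in all uninjured samples except replicate 3, where *Lsd-1* stood at 3.49 TPM. Neighbours in this order overlapped in 9 of 9 pairs, so the order of any 2 adjacent genes was not separated by their spread. At 4 hr *NLaz* was first, and the steps from *NLaz* to *Lsd-2*, *bmm*, *mdy* and *apolpp* were all free of overlap, while the other 5 of 9 neighbour pairs overlapped. At 24 hr *Lsd-2* was first again, *LpR2* stood above *mdy*, and 7 of 9 pairs overlapped, the exceptions being *NLaz* above *apolpp* and *mdy* above *LRP1*. The summed TPM of the 10 genes was 245.6 to 359.1 in uninjured samples, 468.9 to 644.6 at 4 hr and 344.2 to 549.4 at 24 hr, with 77.1% to 90.3% of it from *Lsd-2*, *NLaz* and *bmm*.

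**Figure D1:**
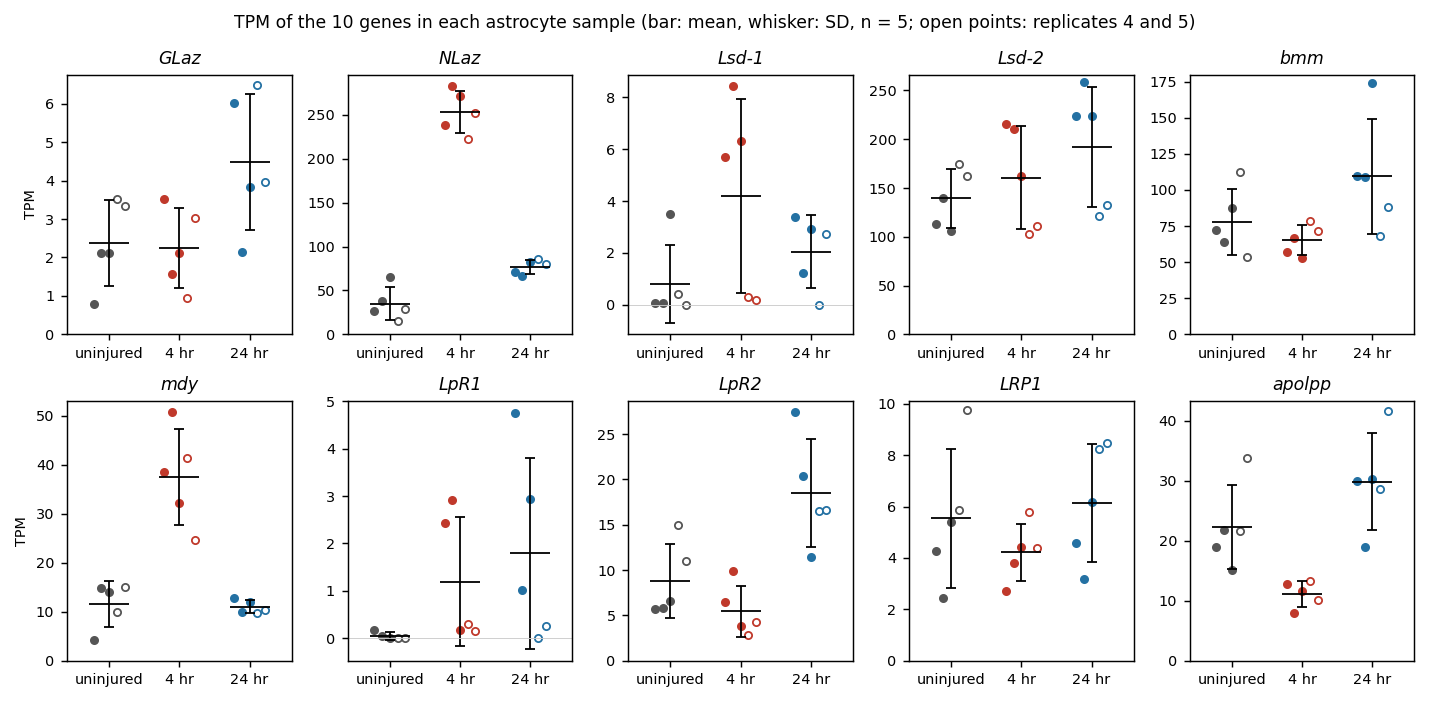
TPM of each of the 10 genes (vertical axes, linear, 1 scale per gene) in uninjured, 4 hr and 24 hr astrocyte samples; each point is a sample, open points are replicates 4 and 5, and bars and whiskers are the mean and SD of 5. *NLaz* and *mdy* are separated from both other groups at 4 hr, *apolpp* and *LpR2* are higher at 24 hr than at 4 hr, and *Lsd-1*, *LpR1* and *Lsd-2* spread widely within the injured groups.

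The groups were compared with limma on log2(TPM + 1) over all 8101 genes, and calling a gene required both a log2 fold change of 1 or more in size and a Benjamini–Hochberg adjusted p under 0.01. At 4 hr, *NLaz* and *mdy* rose and none of the 10 fell, against 5.76% of all tested genes that rose and 0.222% that fell. The ranges of the 4 hr and uninjured samples did not overlap for 3 of the 10, *NLaz* and *mdy* on the higher side and *apolpp* on the lower side, against 8.68% and 0.839% of all genes. At 24 hr *NLaz* alone rose and none fell, against 2.26% and 0.0617%, and it was also the only one of the 10 free of overlap, all of its 24 hr samples being higher, against 12.5% higher and 0.518% lower of all genes. Between the injured groups *apolpp* and *LpR2* were higher at 24 hr than at 4 hr (0.42% of all genes) and *NLaz* and *mdy* were lower (1.58%). These 4 were also the genes without overlap between the injured groups, against 3.47% of all genes on the higher side and 3.63% on the lower side. None of these counts was tested against the shares of all genes.

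The fold changes have to be read against a shift of the whole table. The median log2 fold change of all tested genes was 0.31 at 4 hr and 0.51 at 24 hr, and it was 0.02 and 0.10 after scaling by median-of-ratios size factors. The 10 genes had medians of 0.06 and 0.58, with 5 of 10 above 0 at 4 hr and 10 of 10 at 24 hr. With size factors 4 of 10 and 5 of 10 were above 0, and the medians were -0.23 and 0.15. Size factors also moved the split of all called genes from 467 higher and 18 lower to 326 and 73 at 4 hr, and from 183 and 5 to 50 and 22 at 24 hr. The comparisons of 4 hr and of 24 hr with uninjured flies share the same 5 uninjured samples, so agreement between them is not independent.

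**Figure D2:**
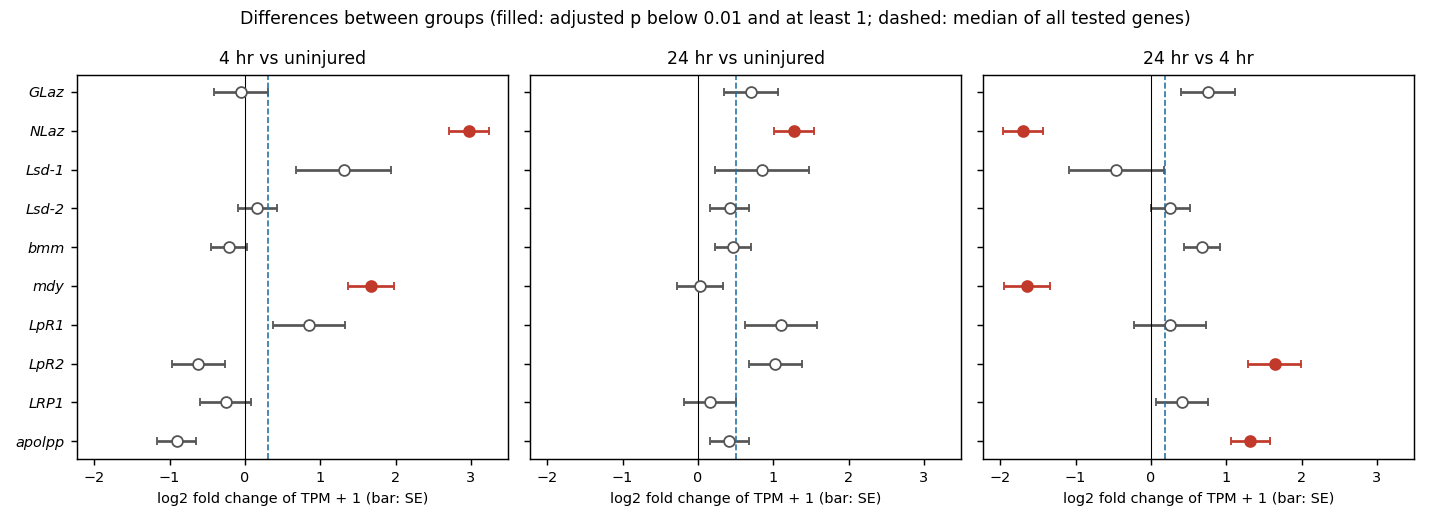
log2 fold change of TPM + 1 (horizontal axis) with its SE for the 10 genes in the 3 comparisons; filled points passed both thresholds, the solid line marks 0 and the dashed line the median of all tested genes (0.31, 0.51 and 0.18). *NLaz* stands at 2.97 at 4 hr and 1.27 at 24 hr, while *mdy* stands at 1.68 and 0.03.

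*NLaz* (FBgn0053126; BDGP6, the dm6 assembly, chromosome 2L, 1359837 to 1361821, minus strand) encodes Neural Lazarillo, a secreted lipocalin related to vertebrate apolipoprotein D and known for roles in stress resistance and metabolism. It measured 26.59, 37.72, 65.4, 15.41 and 28.95 TPM in uninjured replicates 1 to 5, then 237.81, 282.18, 271.48, 222.54 and 251.25 TPM at 4 hr, and 71.53, 66.27, 81.93, 85.82 and 80.06 TPM at 24 hr. The 3 groups were fully apart, with 4 hr highest and 24 hr in between, and replicates 4 and 5 of the injured groups lay with the others. The mean at 4 hr was 7.27 times that of uninjured samples, a log2 fold change of 2.97 (SE 0.26, limma adjusted p = 5.19e-07). This rise passed both thresholds in all 12 alternative settings and in all 15 fits that left out 1 sample. At 24 hr *NLaz* was 2.21 times the uninjured mean (log2 fold change 1.27, SE 0.26, adjusted p = 0.0074), and from 4 hr to 24 hr it fell by 1.70 (SE 0.26, adjusted p = 6.64e-04). The 24 hr call was less firm. It stood in 4 of 12 alternative settings and in 5 of 15 fits without 1 sample, with adjusted p of up to 0.13 and 0.022, and size factors gave 0.78 with an adjusted p of 0.0759. The fall from 4 hr to 24 hr was lost only without replicates 4 and 5 of both injured groups (-1.84, adjusted p = 0.0164). The 24 hr samples were nonetheless above all uninjured samples in 5 of 5, and the log2 fold change stayed above 0 throughout.

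*GLaz* (FBgn0033799; chromosome 2R, 13163959 to 13168032, minus strand) encodes the related Glial Lazarillo, a lipocalin made by glia. Its levels were low in these astrocytes. Uninjured samples gave 0.79, 2.11, 2.12, 3.52 and 3.34 TPM, 4 hr samples 3.51, 1.58, 2.12, 0.96 and 3.03 TPM, and 24 hr samples 6.02, 2.14, 3.82, 6.47 and 3.96 TPM. The 4 hr values lay within the uninjured range, and 4 of 5 of the 24 hr values lay above it. Neither the 4 hr difference (log2 fold change -0.05, SE 0.35, limma adjusted p = 0.944) nor the 24 hr difference (0.71, SE 0.35, adjusted p = 0.148) passed the test. The ratio of *NLaz* to *GLaz* within a sample, which scaling between samples barely touches, was a log2 of 3.33 ± 1.01 in uninjured samples, 6.35 ± 0.49 at 4 hr and 3.89 ± 0.43 at 24 hr (SD, n = 5 each). The 4 hr ratios were above every uninjured ratio in 5 of 5 samples (difference 3.02, exact two-sided permutation p = 0.00794, 0.0212 after Benjamini–Hochberg adjustment over the 8 ratio tests run here, 4 gene pairs at both times). That p is the smallest that 5 against 5 samples allow. On this scale the ratio difference equals the difference of the 2 fold changes, so it is not independent of the *NLaz* call. The adjusted p of this ratio, and of *bmm* to *mdy* below, rests in part on *LpR1* to *LpR2* at 4 hr. That ratio had the same p and is a description only. The 24 hr difference was 0.56 (exact permutation p = 0.31, adjusted p = 0.434).

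*Lsd-2* (FBgn0030608; chromosome X, 15069127 to 15076220, minus strand) encodes the perilipin that covers droplets and shields them from lipases. Uninjured samples gave 112.72, 140.1, 106.36, 174.79 and 162.77 TPM. At 4 hr replicates 1 to 3 stood at 215.28, 210.26 and 162.77 TPM and replicates 4 and 5 at 103.06 and 111.17 TPM. At 24 hr the values were 223.5, 258.44 and 224.07 TPM against 120.83 and 132.57 TPM. Replicates 1 to 3 at 24 hr were thus above all uninjured samples, and replicates 4 and 5 were within or below the uninjured range at both times. Over all samples the log2 fold changes were 0.16 at 4 hr (SE 0.26, limma adjusted p = 0.728) and 0.42 at 24 hr (SE 0.26, adjusted p = 0.236), and their sign turned with size factors, to -0.18 and -0.08. Without replicates 4 and 5 of both injured groups, a choice made after the data were seen, the 24 hr value was 0.78 with an adjusted p of 0.00755, still under the fold threshold.

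*Lsd-1* (FBgn0039114; chromosome 3R, 23763857 to 23766662, plus strand) encodes the other perilipin, which in the fat body controls how lipases reach the droplet. It was far less abundant than *Lsd-2*. Uninjured samples gave 0.09, 0.09, 3.49, 0.42 and 0 TPM, 4 hr samples 5.7, 8.42, 6.33, 0.29 and 0.19 TPM, and 24 hr samples 3.37, 1.23, 2.93, 0 and 2.75 TPM. Replicates 1 to 3 at 4 hr were above the uninjured range, and replicates 4 and 5 lay within it. The log2 fold change at 4 hr was 1.31 (SE 0.63, limma adjusted p = 0.188) and did not pass. Without replicates 4 and 5 of both injured groups it was 2.37 (SE 0.49) with an adjusted p of 0.00327, past both thresholds. That choice was made after the data were seen and removes the lowest 4 hr values of *Lsd-1*, so passing is no support for a rise. In that setting 11.7% of all genes rose, against 5.76% with all samples. Taking the mitochondrial share into the fit as a covariate gave a log2 fold change of -0.06 for *Lsd-1* with an adjusted p of 0.961. The 4 hr value therefore rests on which samples are kept. At 24 hr it was 0.85 (adjusted p = 0.319), and all of the 24 hr samples lay within the uninjured range. Exons of *Lsd-1* share 7.35% of their length with *CG10214* on the opposite strand, and reads there cannot be told apart without strand.

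**Figure D3:**
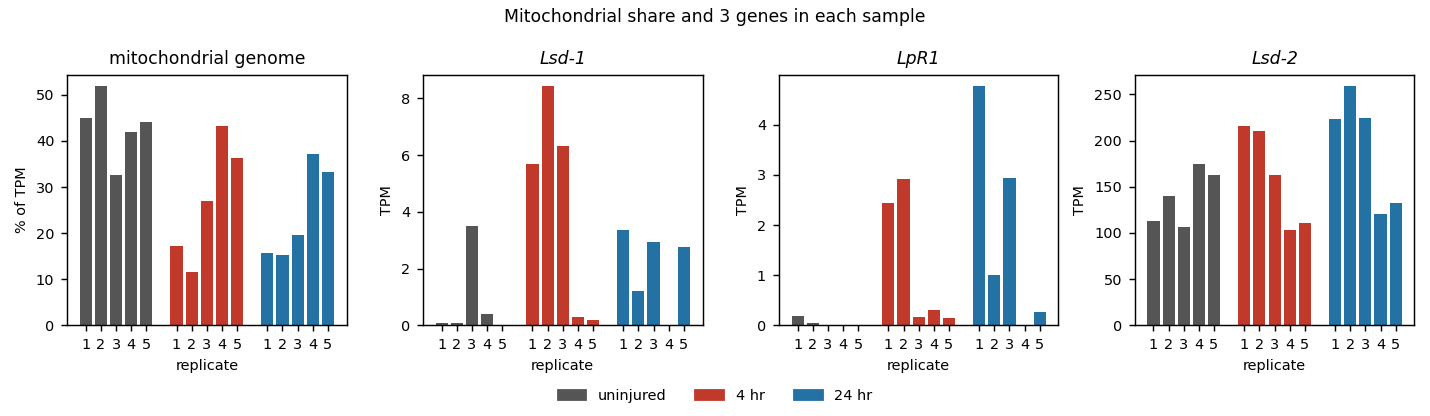
Mitochondrial share of TPM (first panel, percent) and TPM of *Lsd-1*, *LpR1* and *Lsd-2* (linear axes from 0) in each sample, ordered by replicate number within uninjured, 4 hr and 24 hr groups. Replicates 4 and 5 of the injured groups have the highest mitochondrial shares of their groups, and at 4 hr the lowest *Lsd-1* and *Lsd-2* levels.

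The mitochondrial share was 43.2% and 36.3% in replicates 4 and 5 at 4 hr and 37.2% and 33.4% at 24 hr, within the uninjured range, against 11.5% to 26.9% and 15.2% to 19.6% in the other injured samples. Its part in the levels of *Lsd-1*, *Lsd-2* and *LpR1* was not tested beyond the covariate fit. That fit cannot tell the share from the injury, because the share was lower in most injured samples than in any uninjured one. Over all genes, calls on the higher side at 24 hr went from 183 to 27 with the covariate. Markers of cortex glia, another glial type that holds droplets, also differed between samples. The summed TPM of *wrapper*, *zyd* and *Cyp4g15* ranged from 318.5 to 765.9 in uninjured samples. It ranged from 387.9 to 1819 at 4 hr and from 693.7 to 2246 at 24 hr. By group means most came from *Cyp4g15*, at 422.7 ± 152.1, 922.4 ± 597.1 and 1246 ± 731.3 TPM (SD, n = 5 each). The means of *zyd* were 104.3, 94.4 and 171.4 TPM, lower at 4 hr than without injury. *wrapper* had medians of 0.1, 4.25 and 12.54 TPM and was at 0 in 1 uninjured sample and 1 of the 4 hr samples. Markers of surface glia (*moody*, *Mdr65* and *Tret1-1*) summed to 33.3 to 51.1, 43.7 to 131.1 and 41.1 to 100.1 TPM in uninjured, 4 hr and 24 hr samples in turn, and *Mdr65* was at 0 in 5, 4 and 4 of the 5 samples. In these bulk samples a different number of cells of a type and a different amount of RNA per cell cannot be told apart, and the part of these glia in these values was not tested.

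*mdy* (FBgn0004797; chromosome 2L, 16816660 to 16826964, plus strand) encodes midway, the diacylglycerol acyltransferase of the DGAT1 family that makes the last step to triacylglycerol. It measured 4.18, 14.79, 14.01, 10.02 and 15.11 TPM in uninjured samples, 38.48, 50.72, 32.2, 41.31 and 24.57 TPM at 4 hr, and 12.8, 9.88, 11.98, 9.82 and 10.46 TPM at 24 hr. All of the 4 hr samples were above all others, and all of the 24 hr samples were back within the uninjured range. The 4 hr mean was 3.22 times the uninjured mean (log2 fold change 1.68, SE 0.30, limma adjusted p = 0.00101), and from 4 hr to 24 hr *mdy* fell by 1.65 (SE 0.30, adjusted p = 0.00296). The rise passed the thresholds in 11 of 12 alternative settings and in all 15 fits without 1 sample, the exception being the mitochondrial covariate (1.49, adjusted p = 0.0108). The fall was lost without 4 hr replicate 2 (-1.53, adjusted p = 0.0111) and without replicates 4 and 5 of both injured groups (-1.71, adjusted p = 0.0406). At 24 hr the difference from uninjured samples was 0.03 (SE 0.30, adjusted p = 0.949), and it was -0.43 with size factors.

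The neuron markers also differed at 4 hr, the time at which *NLaz* and *mdy* rose. The summed TPM of 12 neuron markers, none at 0 throughout a group, was 71.3 to 94.8 in uninjured samples, 145.0 to 209.0 at 4 hr and 79.8 to 244.7 at 24 hr. Of the 12, only *Syx1A*, which encodes a membrane fusion protein of synapses and other membranes, was at 4 hr above all uninjured samples, at 112.7 ± 10.0 TPM against 39.7 ± 9.13 (SD, n = 5 each). Its exons overlap those of *eIF4EHP* on the same strand. The other 11 summed to 21.8 to 59.1 TPM in uninjured samples and 34.0 to 89.9 TPM at 4 hr, with overlap. The part of neurons in the levels of *NLaz* and *mdy* was not tested.

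*bmm* (FBgn0036449; chromosome 3L, 14776496 to 14786412, minus strand) encodes brummer, the adipose triglyceride lipase that empties droplets. Uninjured samples gave 72.16, 63.76, 87.41, 112.47 and 53.91 TPM, 4 hr samples 57.38, 66.9, 53.19, 78.67 and 71.75 TPM, and 24 hr samples 109.47, 108.81, 173.86, 67.83 and 88.15 TPM. The 3 ranges overlapped, with 4 hr the tightest and 24 hr replicate 3 the highest of all. The log2 fold changes were -0.21 at 4 hr (SE 0.24, limma adjusted p = 0.607), 0.46 at 24 hr (SE 0.24, adjusted p = 0.162) and 0.68 between the injured groups (SE 0.24, adjusted p = 0.125). None passed, and the 24 hr value was -0.03 with size factors. The log2 ratio of *bmm* to *mdy* was 2.71 ± 0.87 in uninjured samples, 0.82 ± 0.43 at 4 hr and 3.14 ± 0.41 at 24 hr (SD, n = 5 each). It was below every uninjured ratio in 5 of 5 samples at 4 hr (difference -1.89, exact two-sided permutation p = 0.00794, adjusted p = 0.0212). This difference, too, is not independent of the single-gene result, the *mdy* call. The 24 hr difference of 0.43 did not pass (exact permutation p = 0.325, adjusted p = 0.434).

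**Figure D4:**
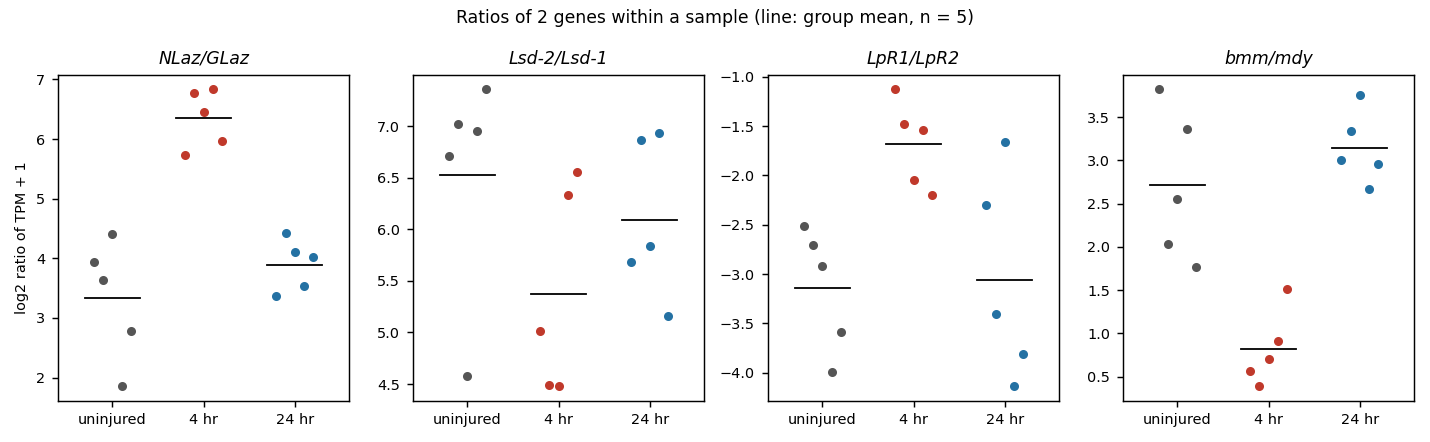
log2 ratio of TPM + 1 of 2 genes within each sample (vertical axes) for 4 gene pairs in uninjured, 4 hr and 24 hr samples; points are samples and lines are means of 5. At 4 hr the *NLaz*/*GLaz* and *LpR1*/*LpR2* ratios are above and the *bmm*/*mdy* ratios below all uninjured ratios, while 24 hr ratios overlap the uninjured ones in all 4 pairs.

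*apolpp* (FBgn0087002; chromosome 4, 1060969 to 1077273, plus strand) encodes the precursor of apolipophorins, the protein scaffold of lipophorin, the main lipoprotein of fly hemolymph, which is made chiefly by the fat body. Astrocytes of uninjured flies gave 18.87, 21.86, 15.04, 21.69 and 33.81 TPM, those at 4 hr 12.83, 7.98, 11.7, 13.22 and 10.12 TPM, and those at 24 hr 29.86, 18.88, 30.27, 28.66 and 41.61 TPM. All of the 4 hr samples were below all uninjured and all 24 hr samples, and the 24 hr and uninjured ranges overlapped. The 4 hr mean was 11.2 ± 2.15 TPM against 22.2 ± 7.03 (SD, n = 5 each), a log2 fold change of -0.91 (SE 0.26, limma adjusted p = 0.0261), which did not pass either threshold. Its sign was the same in 12 of 12 alternative settings, with adjusted p from 0.0108 to 0.187, and size factors gave -1.23. From 4 hr to 24 hr *apolpp* rose by 1.32 (SE 0.26, adjusted p = 0.00467), to 2.67 times the 4 hr mean. This call stood in 8 of 12 alternative settings and in 8 of 15 fits without 1 sample, with adjusted p up to 0.084 and 0.0167. It was lost with size factors (1.16, adjusted p = 0.0254) and without any one of 4 hr replicates 2, 3 and 5 or 24 hr replicates 1, 3, 4 and 5.

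Fat body markers were near 0 without injury and somewhat higher at 4 hr, when *apolpp* was lowest. The summed TPM of 9 fat body genes was 0 to 0.62 in uninjured samples, 3.03 to 7.1 at 4 hr and 0.35 to 4.83 at 24 hr, with 2, 4 and 5 of the 9 above 0, and *Yp1*, *fit* and *Lsp1alpha* were listed at 0 in every sample. The larval serum protein gene *Lsp1beta* was listed at 0 in all uninjured samples and at 1.79 to 3.91 TPM in all 4 hr samples. Hemocyte markers summed to at most 0.19, 1.27 and 2.6 TPM in the 3 groups, with 2, 4 and 4 of the 6 in the table above 0 and *He* at 0 in every sample. *apolpp*, at 7.98 TPM or more, was above both sums in each sample, and the part of these cells in its level was not tested. Its exons share 0.82% of their length with *Zyx* and 5.75% with a transposon insertion, both on the opposite strand.

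The lipophorin receptor genes *LpR2* (FBgn0051092; chromosome 3R, 25698727 to 25740465, minus strand) and *LpR1* (FBgn0066101; chromosome 3R, 25741348 to 25763105, minus strand) are paralogs that lie next to each other, 882 bases apart. Both proteins belong to the low-density lipoprotein receptor family and bind lipophorin. How reads that fit both genes were counted is not given in the sources used here. *LpR2* measured 5.75, 5.84, 6.55, 14.96 and 11.02 TPM in uninjured samples, 6.5, 9.9, 3.83, 2.79 and 4.27 TPM at 4 hr, and 27.43, 20.35, 11.45, 16.54 and 16.67 TPM at 24 hr. Each 24 hr sample was above every 4 hr sample, 4 of 5 were above all uninjured samples, and 3 of 5 of the 4 hr samples were below all uninjured samples. From 4 hr to 24 hr *LpR2* rose by 1.64 (SE 0.35, limma adjusted p = 0.00873), to 3.39 times the 4 hr mean. The differences from uninjured samples were -0.62 at 4 hr (SE 0.35, adjusted p = 0.271) and 1.03 at 24 hr (SE 0.35, adjusted p = 0.048) and did not pass. The call between the injured groups lay close to the threshold. It stood in 7 of 12 alternative settings and in 3 of 15 fits without 1 sample, those without uninjured replicate 1, uninjured replicate 4 or 4 hr replicate 2, with adjusted p from 0.00481 to 0.031 in the 15 fits and 0.151 without replicates 4 and 5 of both injured groups. The log2 fold change lay between 1.42 and 1.86 in all of these fits.

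*LpR1* was near 0 without injury. Uninjured samples gave 0.18, 0.05, 0, 0 and 0 TPM, 4 hr samples 2.43, 2.92, 0.17, 0.3 and 0.15 TPM, and 24 hr samples 4.76, 1.01, 2.94, 0 and 0.26 TPM. The 5 samples that reached 1 TPM were 4 hr replicates 1 and 2 and 24 hr replicates 1, 2 and 3. Fitted log2 fold changes were 0.85 at 4 hr (SE 0.48, limma adjusted p = 0.268) and 1.11 at 24 hr (SE 0.48, adjusted p = 0.0999). Because the uninjured samples lie so near 0, these values depend on the pseudocount and no fold is given. Without replicates 4 and 5 of both injured groups the 24 hr value was 1.78, and with the mitochondrial covariate it was 0.01. No call is read from these values, because the filter was passed only through the injured samples in which *LpR1* is high. The log2 ratio of *LpR1* to *LpR2* was -3.14 ± 0.63 in uninjured samples, -1.68 ± 0.44 at 4 hr and -3.06 ± 1.04 at 24 hr (SD, n = 5 each). These ratios are a description only, since *LpR1* entered through injured samples and, where it is near 0, the ratio follows the pseudocount and *LpR2*.

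*LRP1* (FBgn0053087; chromosome 2R, 8174165 to 8226438, plus strand) encodes the large receptor of the same family that takes up lipoproteins and many other ligands, as known from mammals. Its values were 4.28, 2.44, 5.39, 5.85 and 9.75 TPM in uninjured samples, 2.72, 3.79, 4.41, 5.79 and 4.38 TPM at 4 hr, and 4.58, 3.2, 6.19, 8.24 and 8.48 TPM at 24 hr. All injured samples lay within the uninjured range. The differences from uninjured samples were -0.26 at 4 hr (SE 0.34, limma adjusted p = 0.671) and 0.16 at 24 hr (SE 0.34, adjusted p = 0.754), and the sign at 24 hr turned with size factors (-0.25).

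Other genes of lipid storage and transport were taken from a list of 56, chosen by function and grouped by step, of which 55 were in the table and 47 were tested. At 4 hr 7 of the 47 rose and none fell, against 5.76% and 0.222% of all genes, and at 24 hr 2 rose and none fell, against 2.26% and 0.0617%. Without replicates 4 and 5 of both injured groups the 24 hr count was 20 of 47, when 19.2% of all genes rose. The medians of the 47 stood at 0.36 and 0.80 on the log2 scale, 36 and 44 of them being above 0, against 0.31 and 0.51 for all genes. Between the injured groups 1 gene, *FASN1*, was lower at 24 hr and none was higher, against 1.58% and 0.42% of all genes.

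On the side of synthesis, 1 of 7 tested genes of triacylglycerol (TAG) synthesis and 2 of 8 fatty acid synthesis genes rose at 4 hr, and none of either rose at 24 hr. Of all genes 5.76% and 2.26% rose at these times, and the counts were not tested against these shares. *FASN1*, the fatty acid synthase of most tissues, measured 3.86 to 7.42 TPM (median 4.48) in uninjured samples, 17.79 to 21.79 TPM (19.87) at 4 hr and 4.56 to 8.2 TPM (5.58) at 24 hr. As with *mdy*, all of its 4 hr samples were above all others, and its 24 hr samples overlapped the uninjured ones. It rose by 1.84 at 4 hr (SE 0.25, limma adjusted p = 5.86e-05) and fell by 1.62 from 4 hr to 24 hr (SE 0.25, adjusted p = 6.16e-04), and both calls stood in all 12 alternative settings. *mino*, a mitochondrial glycerol-3-phosphate acyltransferase, measured 2.1 to 9.18 TPM (median 4.61) without injury and 15.56 to 29.63 TPM (23.81) at 4 hr, a rise of 2.00 (SE 0.37, adjusted p = 0.00122). Antisense and opposite genes overlap it, *asRNA:CR46452* over 36.97% of its exon length, so its level is uncertain without strand. *AcCoAS*, which makes acetyl-CoA from acetate, stood at 226.3 ± 42.6 TPM without injury and 612.1 ± 170.5 TPM at 4 hr (SD, n = 5 each), a rise of 1.40 (SE 0.22, adjusted p = 2.44e-04). Its 24 hr value of 0.93 did not pass (adjusted p = 0.0138).

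Of the 4 genes of the droplet surface, 2 rose at 4 hr and 1 rose at 24 hr, against 5.76% and 2.26% of all genes. With so few genes in a step, the counts were not tested against these shares. *Jabba*, which anchors histones and other proteins to droplets in fly embryos, measured 4.83, 0, 2.67, 4.94 and 7.18 TPM in uninjured samples, 19.84, 22.23, 10.35, 15.99 and 28.17 TPM at 4 hr and 29.16, 24.02, 28.07, 15.36 and 18.6 TPM at 24 hr. Every injured sample was above every uninjured one, replicates 4 and 5 included. It rose by 2.27 at 4 hr (SE 0.46, limma adjusted p = 0.00247) and by 2.54 at 24 hr (SE 0.46, adjusted p = 0.003), and these calls stood in 6 and 7 of 12 alternative settings. *Pcyt1*, whose enzyme sets the pace of making phosphatidylcholine for growing droplets in fly cells, measured 8.55, 2.34, 12.03, 7.81 and 1.03 TPM without injury and 218, 145.66, 102.34, 21.69 and 35.67 TPM at 4 hr. The 4 hr samples were all higher but spread widely, replicates 4 and 5 being the lowest. It rose by 3.70 (SE 0.65, adjusted p = 7.88e-04), and its 24 hr value of 2.75 did not pass (adjusted p = 0.0142). *Pcyt1* and its paralog *Pcyt2* overlap by 12 bases on the same strand, and *Pcyt2*, named here as the paralog after its values were seen, did not pass at 4 hr (-0.50, adjusted p = 0.386).

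**Figure D5:**
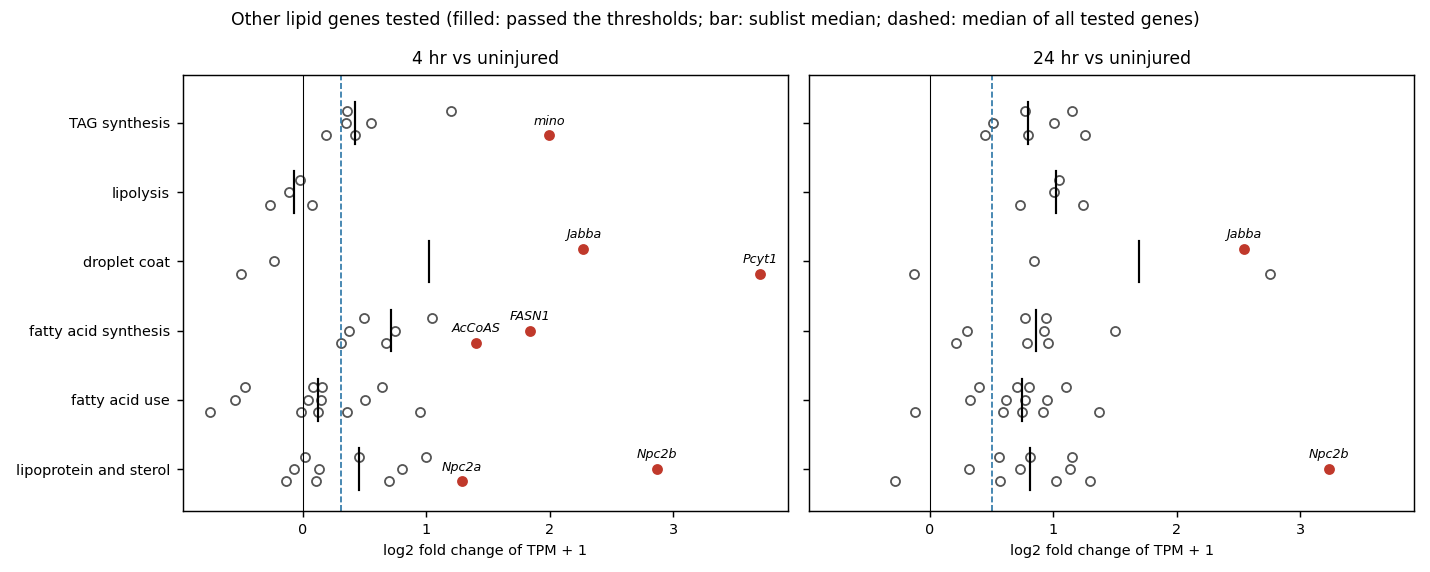
log2 fold change of TPM + 1 (horizontal axes, 1 shared scale) of the 47 tested genes of lipid storage and transport, grouped by step, at 4 hr and 24 hr against uninjured samples; filled points passed both thresholds, bars are medians of a step and dashed lines the median of all tested genes. The 7 called genes at 4 hr spread over 4 steps, and at 24 hr *Jabba* (2.54) and *Npc2b* (3.23) remain past the thresholds.

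None of 4 tested lipolysis genes and none of 13 tested genes of fatty acid use passed in any comparison. At the shares of all genes called (5.76% and 2.26% higher than in uninjured samples at 4 hr and 24 hr), counts of 0 among so few genes do not set these steps apart. *Hsl*, the hormone-sensitive lipase with the highest mean of the lipolysis genes over the 15 samples, measured 20.35 to 61.07 TPM in uninjured samples, 14.6 to 56.9 TPM at 4 hr and 37.22 to 97.26 TPM at 24 hr (log2 fold changes -0.11 and 1.05, limma adjusted p = 0.885 and 0.0628). Over 12 alternative settings the 24 hr value of *Hsl* ranged from -0.0055 to 1.53. The 4 lipolysis genes had a median of -0.07 at 4 hr and 1.03 at 24 hr, with 1 and 4 of 4 above 0. The medians of all genes were 0.31 and 0.51. Some of the 4 lay near 0, with means of 0.34 and 0.56 TPM at 4 hr and 2.28 and 3.05 TPM at 24 hr. *fabp*, a fatty acid binding protein gene with the highest mean of its group over the 15 samples, stood at 118.9 ± 35.9, 70.6 ± 21.1 and 114.7 ± 53.2 TPM (SD, n = 5 each) in uninjured, 4 hr and 24 hr samples without a call (log2 fold changes -0.75 and -0.12, adjusted p = 0.131 and 0.808), and 72.11% of its exon length is shared with *sea* on the same strand, so its level is uncertain.

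Among 11 tested genes of lipoprotein assembly, other receptors and sterol handling, 2 rose at 4 hr and 1 at 24 hr. These counts, too, were not tested against the 5.76% and 2.26% of all genes. *Npc2b*, a secreted sterol-binding protein gene of the Niemann-Pick type C2 family, measured 1.55, 0, 2.2, 2.59 and 1.22 TPM without injury, 33.72, 21.56, 20.83, 5.64 and 10.93 TPM at 4 hr and 25.19, 19.74, 18.14, 16.3 and 25.69 TPM at 24 hr. All injured samples were above all uninjured samples at both times. It rose by 2.87 (SE 0.42, limma adjusted p = 1.38e-04) and 3.23 (SE 0.42, adjusted p = 3.55e-04), and both calls stood in all 12 alternative settings and all 15 fits without 1 sample. *Npc2a* of the same family rose by 1.29 at 4 hr (SE 0.26, adjusted p = 0.00285), from 20.1 ± 4.19 to 52.9 ± 19.1 TPM (SD, n = 5 each), and its 24 hr value of 1.14 did not pass (adjusted p = 0.0125). The 4 hr call of *Npc2a* stood in 7 of 12 alternative settings and in 12 of 15 fits without 1 sample.

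The genes whose levels followed those of the 3 most abundant of the 10 were named by the largest Pearson r of log2(TPM + 1) over the 15 samples, which share their scaling and fall into 3 groups. For *NLaz* these were *CG10126* (r = 0.98, and 0.79 after group means were removed), *CG14207* (0.98 and 0.86) and *cib* (0.97 and 0.65). *CG14207*, a small heat shock protein gene, went from 59.5 ± 38.4 to 810.4 ± 107.7 and 226.3 ± 20.6 TPM in uninjured, 4 hr and 24 hr samples (SD, n = 5 each). *cib*, which encodes an actin-binding protein, went from 248.2 ± 41.0 to 1242 ± 135.2 and 563.0 ± 112.2 TPM (SD, n = 5 each). For *Lsd-2* they were *PEK*, the kinase of the endoplasmic reticulum stress response (0.93 and 0.92), *CG9346* (0.92 and 0.92) and *Usp15-31* (0.91 and 0.93), so that the likeness lay within the groups as much as between them. Within both injured groups *Lsd-2* was lowest in replicates 4 and 5, and the part of that split in these r values was not tested. For *bmm* they were *Tango6* (0.83 and 0.74), *CG18568* (0.82 and 0.76) and *CG42488* (0.79 and 0.70).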

How the data were processed

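RNA-seq was done on FACS-sorted astrocytes, with 5 replicates of each group (uninjured, and at 4 hr or 24 hr after TBI). The authors deposited TPM per gene, given to 2 decimals, and all 15 value columns were used, assigned by their labels. The submitters' processing notes name Trimmomatic 0.39, FastQC 0.11.7, HISAT2, HTSeq, STAR 2.6.0a, RSEM 1.3.1, R 4.0.0 and DESeq2 1.30.1 and dm6, without saying which of them gave the TPM values. Counts were not used here, so precision was taken from the replicates.

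Genes that reached 1 TPM in 5 or more samples were fitted as log2(TPM + 1) in 1 model of the 3 groups, with limma 3.58.1 in R 4.3.3 and variances that follow a trend with expression. Calls needed a Benjamini–Hochberg adjusted p below 0.01 over all 8101 genes and a log2 fold change of 1 or more in size. A fold change on the log2(TPM + 1) scale understates changes of low genes. Ratios within samples were compared by exact two-sided permutation with SciPy 1.17.1, and tables and figures used Python 3.11.15, NumPy 2.4.6, pandas 2.3.3 and matplotlib 3.10.9. The fit was tested on simulated data.

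Alternative settings took 0.1 as the pseudocount, no filter or one at 5 TPM, only the 2 groups compared, size factors, quantile normalization, removal of the mitochondrial genome, no variance trend, the replicate number as a block, an adjusted p below 0.05 with no fold limit, and leaving out each sample. The mitochondrial covariate and the removal of replicates 4 and 5 of both injured groups were added after the data were seen. Named genes were all 10 members, every called gene of the lipid list or the most abundant of a step with none, the 3 genes most like each of the 3 most abundant members, and single cell type markers. Members and lists were chosen with earlier results of these data known. Names and positions are from the BDGP6 Ensembl annotation, and 17398 identifiers were found in it. *FASN3* of the lipid list was not analysed here.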

Additional observations from a re-analysis of the deposited data

Results flagged for a closer look

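In 30 sets of 5 samples (10 genes in 3 groups), 2 held a sample far from the others, where chance alone gives about 1 in 20. *Lsd-1* stood at 3.49 TPM in uninjured replicate 3, with the other uninjured samples at 0 to 0.42 TPM. *LpR1* stood at 0.18 TPM in uninjured replicate 1, with the others at 0 to 0.05 TPM.

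The effects of TBI at 24 hr and at 4 hr differed in 4 genes by the limma test of the difference, which cancels the shared uninjured samples. On the log2 scale the effect at 24 hr minus that at 4 hr was -1.70 for *NLaz*, -1.65 for *mdy*, 1.64 for *LpR2* and 1.32 for *apolpp*. The first 2 calls were lost in 1 of 12 alternative settings each, and those of *LpR2* and *apolpp* in 5 and 4 of 12.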

How the results depend on the processing

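Of the 10 genes, the number called at 4 hr (2) was 1 with the mitochondrial covariate, when 3.63% of all genes rose against 5.76%. It was 3 without replicates 4 and 5 of both injured groups (*Lsd-1* added), when 11.7% rose. It was also 3 at an adjusted p below 0.05 (*apolpp* added as lower), when 12.0% rose and 1.22% fell. In every fit without 1 sample it was 2. At 24 hr (1) it was 0 with no filter, only the 2 groups compared, size factors or quantile normalization. In these settings, in turn, 0.754%, 2.85%, 0.617% and 0.593% of all genes rose. It was also 0 with the mitochondrial genome removed, no variance trend or the mitochondrial covariate, when 0.915%, 1.74% and 0.333% rose. At an adjusted p below 0.05 it was 2 (*LpR2* added), when 18.3% of all genes rose. It was 0 to 1 without 1 sample, with 0 in 10 of 15 fits. Those were the fits without uninjured replicates 1, 2, 4 or 5, 4 hr replicate 3 or any 24 hr replicate. Without replicates 4 and 5 of both injured groups the 24 hr number was still 1, but the gene was *LpR1* in place of *NLaz*. In that setting 19.2% of all genes rose. There *NLaz* missed the adjusted p threshold, and no call is read from *LpR1*, which passed the filter only through injured samples. Between the injured groups (4) the number called was 0 without replicates 4 and 5 of both injured groups and 2 to 4 without 1 sample. Without those replicates 0.0864% of all genes were higher at 24 hr and 0.864% lower, against 0.42% and 1.58% with them. The cause of these changes was not tested.

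For the other lipid genes, the 7 calls at 4 hr became 12 at an adjusted p below 0.05 (when 12.0% of all genes rose) and 3 with the mitochondrial covariate (when 3.63% rose). Without 1 sample they were 6 to 8. The 2 calls at 24 hr became 1 with a pseudocount of 0.1, size factors, quantile normalization, the mitochondrial genome removed or the mitochondrial covariate. In these settings, in turn, 2.09%, 0.617%, 0.593%, 0.915% and 0.333% of all genes rose. They became 4 with only the 2 groups compared, 5 with the replicate block, 17 at an adjusted p below 0.05 and 20 without replicates 4 and 5. There, in turn, 2.85%, 7.21%, 18.3% and 19.2% of all genes rose. Without 1 sample they were 1 to 4 (4 without 4 hr replicate 4, 1 without 24 hr replicate 1 or 3). Between the injured groups the 1 call, lower at 24 hr, became 3 at an adjusted p below 0.05, with 2 higher and 1 lower. There 1.85% of all genes were higher at 24 hr and 2.94% lower. In every fit without 1 sample the number was 1.

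Among genes not called, the sign at 4 hr turned for *Lsd-2* with size factors (-0.18), quantile normalization (-0.18), the mitochondrial genome removed (-0.18) and the covariate (-0.36), and with the covariate for *Lsd-1* (-0.063), *LpR1* (-0.085) and *LRP1* (0.041). *GLaz* turned to 0.045 without replicates 4 and 5 and ranged from -0.26 to 0.12 without 1 sample. At 24 hr it turned for *mdy* (-0.43, -0.56, -0.35 and -0.19 with size factors, quantile normalization, the mitochondrial genome removed and the covariate) and for *LRP1* (-0.25, -0.42 and -0.18 with the first 3, -0.15 without replicates 4 and 5). It turned for *Lsd-2* (-0.080 with size factors, -0.19 with the covariate), *bmm* (-0.035, size factors), *apolpp* (-0.069, size factors, and -0.099, quantile) and *Lsd-1* (-0.76, covariate). Without 1 sample, *mdy* ranged from -0.26 to 0.15 and *LRP1* from -0.050 to 0.36 at 24 hr, and *LpR1* from -0.081 to 0.55 between the injured groups.

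Replicate numbers were checked as pairs. Deviations of same-numbered samples correlated at over 0.1 in 2 of 5 pairs of uninjured with 4 hr, 2 of 5 of uninjured with 24 hr and 4 of 5 of 4 hr with 24 hr samples (up to 0.54, with -0.018 for replicate 3), and 6 of 15 samples correlated best with their own number. The labels of the value columns number most uninjured and all 24 hr samples differently, so a shared replicate number is not a shared number there. Since not every pair passed and the labels tie the numbers to nothing, the block stayed an alternative. With the replicate block, the calls over all genes were 547 higher and 27 lower at 4 hr and 584 and 14 at 24 hr, the counts of the 10 genes were within 1.5 times, and *LpR2* between the injured groups had an adjusted p of 0.0121. As pairs, the 4 hr differences of *NLaz*/*GLaz* (3.02) and *bmm*/*mdy* (-1.89) had an adjusted sign-flip permutation p of 0.125, since 5 pairs cannot give less than 0.0625 before adjustment. The *LpR1*/*LpR2* difference (1.47 as pairs) is a description only, though its test was among those adjusted over. Without 1 sample, these ratio differences ranged from 2.66 to 3.29, 1.25 to 1.62 and -2.13 to -1.61. *Lsd-2*/*Lsd-1* at 4 hr ranged from -1.63 to -0.92. The first value was without uninjured replicate 3, with an exact permutation p of 0.0317 after adjustment over the ratio tests. *LpR1*/*LpR2* at 24 hr ranged from -0.27 to 0.35, below 0 without uninjured replicate 4 or 5 or 24 hr replicate 1 or 3.

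Depth per sample is unknown, so a level of 0 TPM gives no upper limit, and low genes such as *LpR1* and *Lsd-1* carry the largest uncertainty.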

Other observations

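The *Lsd-2*/*Lsd-1* log2 ratio, which belongs to no call above, was 6.52 ± 1.11 in uninjured samples, 5.37 ± 1.00 at 4 hr and 6.09 ± 0.78 at 24 hr (SD, n = 5 each). The differences from uninjured samples were -1.15 (exact two-sided permutation p = 0.0873, adjusted p = 0.175) and -0.43 (p = 0.484, adjusted p = 0.553).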
